A study of Mus musculus with 2 samples.

Results

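Odam and Amtn are the 2 genes described here, of 19626 genes in the count matrix, and they were taken by their symbols. Each row was followed through every cluster to which the depositors assigned cells. The study measured single-cell transcriptomes of the mouse incisor cervical loop region at postnatal day 20, with epithelium and mesenchyme together. The mutant animal carried Memo1;K14CRE, in which Cre recombinase driven by the keratin 14 promoter acts on Memo1 in epithelial cells, and it gave 13820 cells. The control animal, labelled only as control, gave 9708 cells. Each genotype was represented by 1 mouse and 1 droplet library, so no spread between animals can be estimated and every interval below covers counting error only.

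Odam encodes odontogenic ameloblast-associated protein and Amtn encodes amelotin. Both are secreted by ameloblasts, the epithelial cells that make enamel, once these cells have passed from the secretory stage, in which the matrix is laid down, to the maturation stage, in which the mineral hardens. The secreted proteins collect in the specialised basal lamina between maturation ameloblasts and the enamel surface, together with laminin. The same proteins also occur in the junctional epithelium, which seals the gum to the tooth. Both genes belong to the family of secretory calcium-binding phosphoproteins, whose other members include the enamel matrix genes Amelx, Ambn and Enam.

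In the GENCODE M21 annotation of GRCm38, Odam lies on chromosome 5 from 87885029 to 87894174 on the plus strand, with 2 transcripts. Amtn lies on the same strand from 88376108 to 88385916, with 1 transcript of 9 exons. The starts are 491 kb apart, and 0 annotated genes overlap either of them. The 250 bases before each RefSeq start, which is 87885010 for Odam and 88376108 for Amtn on GRCm38.p6, were taken from RefSeq and are shown because both genes were lower in the same cluster of the mutant (Odam chr5:87884760-87885009 and Amtn chr5:88375858-88376107, plus strand, 5′ to 3′). Capitals mark every match, on either strand, to CCAAT (the CCAAT box), TGTGGT (the RUNX core) or TGANTCA (AP-1).
Odam: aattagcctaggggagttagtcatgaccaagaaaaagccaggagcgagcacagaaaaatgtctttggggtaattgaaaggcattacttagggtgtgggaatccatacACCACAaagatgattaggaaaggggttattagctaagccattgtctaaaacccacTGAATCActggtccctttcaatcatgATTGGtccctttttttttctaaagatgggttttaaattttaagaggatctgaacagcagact
Amtn: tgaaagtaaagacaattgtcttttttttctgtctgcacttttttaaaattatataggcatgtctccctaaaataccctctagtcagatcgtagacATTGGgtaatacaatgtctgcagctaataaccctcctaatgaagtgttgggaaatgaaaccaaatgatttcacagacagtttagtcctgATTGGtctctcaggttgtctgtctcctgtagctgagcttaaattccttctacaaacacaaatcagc
Distances are from the RefSeq start. In the Odam window the CCAAT box reads ATTGG on the printed strand and begins 62 bases before that start, the RUNX core reads ACCACA 143 bases before it, and the AP-1 motif reads TGAATCA 88 bases before it. The Amtn window holds the CCAAT box at 155 and at 66 bases before the start. Across 32851 RefSeq windows of the same length, 33.8% hold CCAAT, 14% hold TGTGGT and 6.75% hold TGANTCA. TTGCNNAA (C/EBP), TATAAA (the TATA box) and TGTTTNC (forkhead) were searched as well and are in neither window, against 9.56%, 12.4% and 17.8% of all windows. None of these matches overlaps another.

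The mutant library held 120862385 UMIs (unique molecular identifiers, each standing for 1 captured transcript) with a median of 6798 per cell, and the control library 79518656 with a median of 2643. Memo1 itself had 17.7 CPM (counts per 1000000 UMIs) in the ameloblast lineage of the mutant and 20.3 CPM in that of the control. Reads come from the 3′ end of transcripts and the deleted exon is not given in the sources used here, so this level does not check the genotype. Cell barcodes shared by the libraries numbered 139. In 17 of these pairs both cells fell into the same all-cell cluster, and there the mutant cells held 502 to 752 UMIs while 15 of the control cells held more than 30000. In 1 such pair a mutant cell of 554 UMIs with 17 Odam and 14 Amtn counts matched a control cell of 43027 UMIs with 1802 Odam and 1308 Amtn counts. All 28 Odam counts of mutant cells with a shared barcode lay in partners of control cells from the cluster that carries these genes. Whether counts passed between the libraries was not tested, and the reductions in cluster 7 and the shares of its cells with both transcripts are given with and without them.

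Odam and Amtn were concentrated in ameloblast cluster 7, and both were lower there in the mutant. The cluster held 78 mutant and 187 control cells, and 6 of 7 maturation markers fixed for naming reached 10 CPM in it, among them Klk4, the protease that clears the matrix, and Slc24a4, a calcium exchanger. It is called maturation ameloblast-like here. Odam and Amtn lead the list of genes that set the cluster apart, so their height in it describes the clustering and is no finding. Odam had 464 counts (399 CPM) in the mutant cluster and 36607 counts (15808 CPM) in the control cluster, 39.6-fold lower in the mutant (95% interval 36.1 to 43.5). Amtn had 5226 counts (4495 CPM) in the mutant cluster and 40568 counts (17518 CPM) in the control cluster, 3.90-fold lower in the mutant (3.79 to 4.01). The amelotin gene thus kept a larger part of its control level than Odam did. Of 7009 genes measured in cluster 7, 11.6% were at least 2-fold lower in the mutant and 6.01% at least 2-fold higher, and 44 genes had a lower ratio than Odam and 296 a lower ratio than Amtn. Without the cells whose barcode occurs in both libraries, the reductions were 42.7-fold for Odam and 4.18-fold for Amtn. As a mean of per-cell CPM, which gives shallow and deep cells equal weight, they were 14.6-fold for Odam and 2.62-fold for Amtn.

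**Figure D1:**
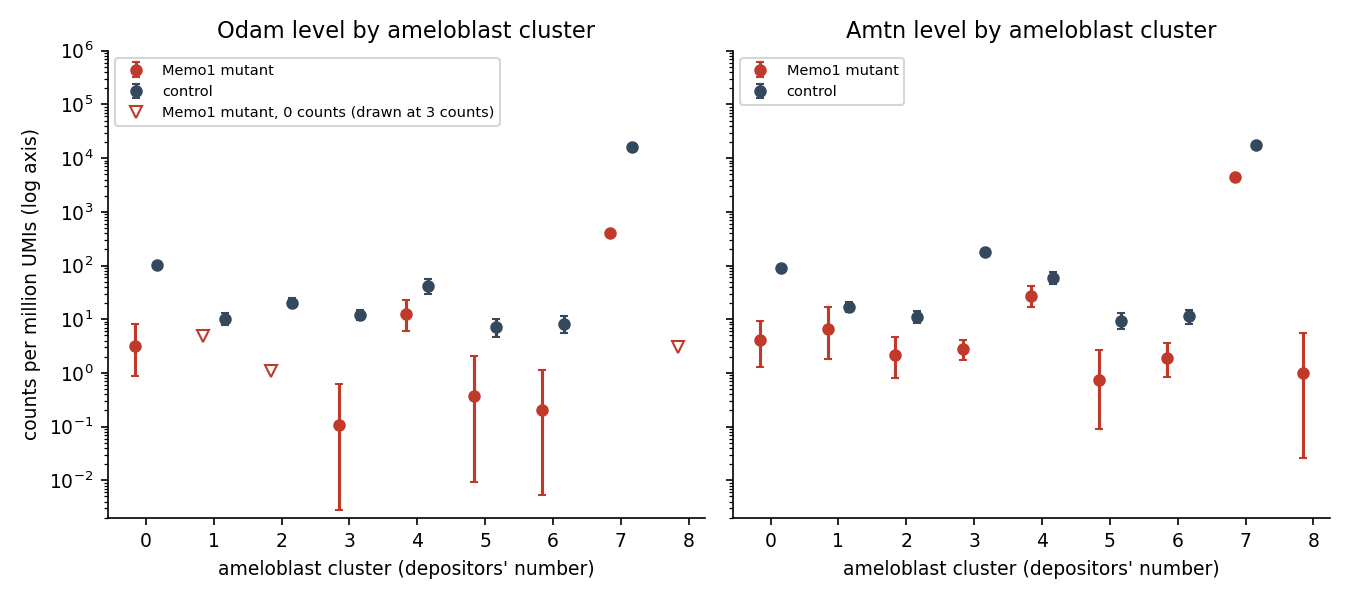
Level of Odam (left) and Amtn (right) in CPM, on a log axis, in each ameloblast cluster with at least 50 cells, with 95% Poisson intervals for counting error; red is the Memo1 mutant, dark blue the control, and open triangles mark clusters with 0 counts, drawn at the 3 counts that a 0 allows. Cluster 7 stands far above the others in both libraries, with Odam at 399 CPM in the mutant and 15808 CPM in the control.

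Across the whole lineage, 2303 mutant and 2981 control cells, Odam stood at 19.9 CPM in the mutant and 1151 CPM in the control, 58.0-fold lower in the mutant (53.0 to 63.6). Amtn stood at 219 CPM in the mutant and 1314 CPM in the control, 6.01-fold lower in the mutant (5.84 to 6.18). Here 1.58% of 8015 genes were at least 2-fold lower and 1.48% at least 2-fold higher. Only 7 genes had a lower ratio than Odam, and 17 a lower one than Amtn. Lineage sums also reflect the number of cluster 7 cells, which was smaller in the mutant, whereas the ratio within the cluster does not. Cluster 7 held 89.2% of all Odam counts in the mutant and 96.1% in the control, and 93.5% of all Amtn counts in the mutant and 92.8% in the control.

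In the other ameloblast clusters both genes were low. The mutant order for Odam ran from cluster 7 to cluster 4 at 12.5 CPM, cluster 0 at 3.22 CPM and clusters 5, 6 and 3 at 0.375 CPM or less, with 0 counts in clusters 1, 2 and 8. After cluster 7 each interval in this order overlapped the next. All 10 Odam counts of mutant cluster 4 lay in 1 cell, whose barcode also marks a control cell with 1004 Odam counts. In the control the Odam order ran from cluster 7 to cluster 0 at 101 CPM, cluster 4 at 41.2 CPM and cluster 2 at 20.4 CPM, each apart from the next by its interval, and clusters 3, 1, 6 and 5 followed between 12.1 and 7.07 CPM with overlapping intervals. A single control cell held 62 of the Odam counts of cluster 2. Control clusters 0 and 4 were shallow, with medians of 1092 and 1996 UMIs, and had Odam in 9.78% and 9.69% of cells. The deeper clusters 3 and 6, with medians of 35309 and 28926 UMIs, had it in 19.7% and 20.3%. The order by CPM is thus not the order by share of cells, and depth enters both.

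For Amtn the mutant order ran from cluster 7 to cluster 4 at 27.4 CPM, where 18 of 22 counts lay in 1 cell that the clustering of all cells puts in all-cell cluster 24, the counterpart of cluster 7. Without that cell the level of mutant cluster 4 was 4.99 CPM. The order then ran from 6.57 CPM in cluster 1 to 0.750 CPM in cluster 5 with neighbouring intervals that overlapped. Cluster 8, which held 91 cells and occurred in the mutant alone, had 1 Amtn count. In the control, cluster 3 came after cluster 7 at 180 CPM. Cluster 0 followed at 89.5 CPM and cluster 4 at 59.4 CPM, and the rest lay between 17 and 9.42 CPM. By share of control cells, Amtn was present in 12.7% of the shallow cluster 0 and 10.6% of the shallow cluster 4. In the deeper clusters 3 and 6 the shares were 26.9% and 26.6%. The place of cluster 3 rests on few cells, since 725 of its 1380 Amtn counts lay in 1 cell that is also in all-cell cluster 24. All-cell cluster 14, which took 284 of the 286 mutant and 219 of the 223 control cells of cluster 3, had Amtn at 3.18 CPM in the mutant and 8.93 CPM in the control.

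Summed over the lineage outside cluster 7, where 1.42% of measured genes were at least 2-fold lower in the mutant, Odam stood at 0.737 CPM in the mutant and 19.2 CPM in the control, and Amtn at 3.21 CPM in the mutant and 62.3 CPM in the control. Without the cells of all-cell cluster 24, an alternative chosen after the data were seen, Amtn stood at 2.43 CPM in the mutant and 17.9 CPM in the control, and Odam at 0.737 CPM in the mutant and 15.2 CPM in the control. Endothelium-like cells, which should lack both transcripts, had Odam at 0.133 CPM in the mutant and 13.4 CPM in the control, and Amtn at 2.13 CPM in the mutant and 24.1 CPM in the control. The ratios outside cluster 7 cannot be told apart from a difference in free RNA between the libraries. Over the 7 clusters compared there, the mutant over control ratio ran from 0 to 0.303 for Odam and from 0.0152 to 0.462 for Amtn. The lowest Amtn ratio was that of cluster 3, which was 0.293 without its cells of all-cell cluster 24. These ratios rest on small counts, 0 to 10 for Odam in the mutant and 27 to 208 in the control, and 2 to 25 for Amtn in the mutant and 36 to 1380 in the control. In cluster 4 the reduction was 3.30-fold for Odam (1.64 to 7.37) and 2.17-fold for Amtn (1.31 to 3.70). For Odam it was 11.4-fold without cells of shared barcodes, with the 0 mutant counts then left set to a floor of 3 counts. For Amtn it was 6.91-fold without the richest cell in each library.

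Cell by cell, most mutant cells of cluster 7 had Amtn without Odam. Amtn ranged from 0 to 1471 counts per mutant cell with a median of 15, and from 0 to 2304 per control cell with a median of 49. Odam ranged from 0 to 214 counts per mutant cell with a median of 0, and from 0 to 1802 per control cell with a median of 14. The single-cell ranges overlap, but 54 control cells held at least 100 Odam counts and 2 mutant cells did. These mutant cells had 214 and 168 Odam counts beside 1471 and 222 Amtn counts, and together they held most of the Odam of the mutant cluster. Without the cell richest in the gene in each library, the reduction in the cluster was 68.5-fold for Odam and 5.01-fold for Amtn.

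**Figure D2:**
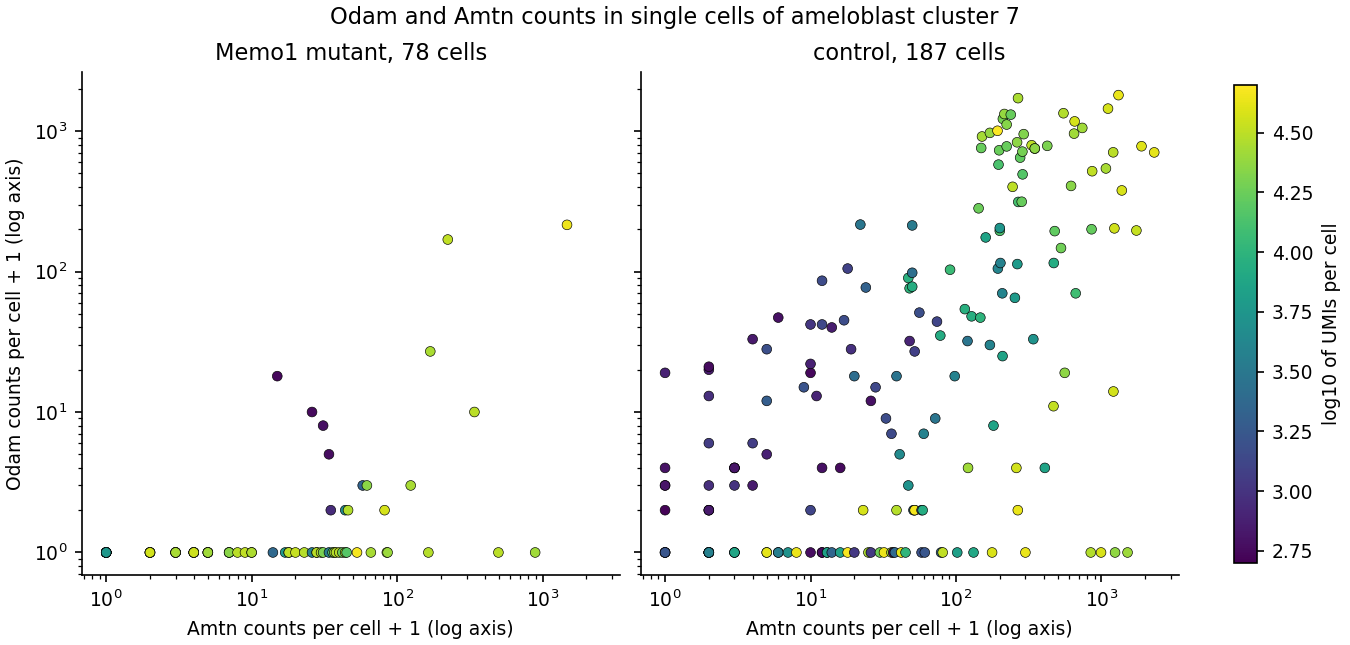
Counts per cell, plus 1 and on log axes, of Amtn (horizontal) and Odam (vertical) in cells of ameloblast cluster 7, coloured by the UMIs of the cell, with 78 mutant cells on the left and 187 control cells on the right. Most mutant cells lie on the bottom line, with 0 Odam, whereas 54 control cells and 2 mutant cells reach 100 Odam counts.

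Detection followed the same pattern. Among mutant cells of cluster 7, 15 had both transcripts, 52 had Amtn alone, 0 had Odam alone and 11 had neither. Among control cells, 132 had both, 46 had Amtn alone, 5 had Odam alone and 4 had neither. Cells with both therefore made up 19.2% of the mutant cluster (exact binomial 95% interval 11.2 to 29.7) and 70.6% of the control cluster (63.5 to 77.0). Without cells of shared barcodes the shares were 19.4% of 72 mutant cells and 71.1% of 180 control cells. Seen from Odam, 15 of 15 mutant cells and 132 of 137 control cells that had it also had Amtn. Seen from Amtn, Odam was present in 22.4% of the Amtn cells of the mutant and 74.2% of those of the control. The 5 control cells with Odam alone all had fewer than 1000 UMIs.

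Free RNA in droplets gives counts in cells that do not make a transcript, so endothelium-like cells served as the level to compare. Of 1508 such mutant cells (median 7160 UMIs), 0.133% had an Odam count and 1.59% an Amtn count, and 0 had both, which allows a share of up to 0.199%. Of 776 such control cells (median 4914 UMIs), 10.8% had an Odam count, 16.9% an Amtn count and 2.71% both. Cluster 7, with a median of 8059 UMIs in the mutant and 5513 in the control, exceeded these shares in both libraries.

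Odam was detected in a smaller share of mutant cells in each band of depth. Among cells of at least 10000 UMIs, all 39 mutant and all 72 control cells had Amtn, while Odam was present in 8 mutant and 56 control cells. Their median Amtn count was 37 in the mutant and 271 in the control, and their median Odam count 0 in the mutant and 312 in the control. Among cells of 1000 up to 10000 UMIs, Odam was present in 2 of 19 mutant and 52 of 74 control cells, and Amtn in 14 of 19 mutant and 72 of 74 control cells. Below 1000 UMIs, Odam was present in 5 of 20 mutant and 29 of 41 control cells, and in 4 of 15 mutant and 29 of 41 control cells without shared barcodes. Amtn was present there in 14 of 20 mutant and 34 of 41 control cells. Its level there was not lower in the mutant, at 11864 CPM against 9543 CPM in the control. The median was 2 Amtn counts in both libraries. The size of the Odam reduction differed between bands. Below 1000 UMIs, Odam stood at 2853 CPM in the mutant (1978 CPM without shared barcodes) and 12270 CPM in the control. From 1000 up to 10000 UMIs it stood at 59.7 CPM in the mutant, from 3 counts, and 8888 CPM in the control. In the deepest band it stood at 385 CPM in the mutant and 16883 CPM in the control. When each cell was thinned to 1000 UMIs, which left out 20 mutant and 41 control cells, both transcripts were found in 6.90% of 58 mutant cells (1.91 to 16.7) and 65.8% of 146 control cells (57.5 to 73.4). After thinning, all 4 mutant and all 96 control cells with Odam had Amtn.

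The difference in Odam was also present between cells with like amounts of Amtn. After thinning, Odam was found in 0 of 16 mutant and 0 of 14 control cells that had no Amtn count left. In cells with 1 to 4 Amtn counts, Odam was found in 1 of 29 mutant and 11 of 21 control cells. In cells with 5 to 19 Amtn counts it was found in 1 of 10 mutant and 43 of 57 control cells. With 20 or more Amtn counts it was found in 2 of 3 mutant and 42 of 54 control cells, and 3 cells are too few to separate the libraries. The same cells were also binned by Amtn CPM over all their UMIs. From 1000 up to 5000 CPM, Odam was found in 4 of 24 mutant and 10 of 20 control cells, with overlapping intervals. From 5000 up to 20000 CPM it was found in 4 of 10 mutant and 52 of 58 control cells. Amounts of Amtn within the thinned bins were not equal. Cells with 1 to 4 Amtn counts carried Amtn at 2024 CPM in the mutant and 3486 CPM in the control. They differed in other ways too. Amelx, the main enamel matrix transcript, stood at 287815 CPM in the mutant and 223304 CPM in the control. Klk4 stood at 151 CPM in the mutant and 1170 CPM in the control.

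**Figure D3:**
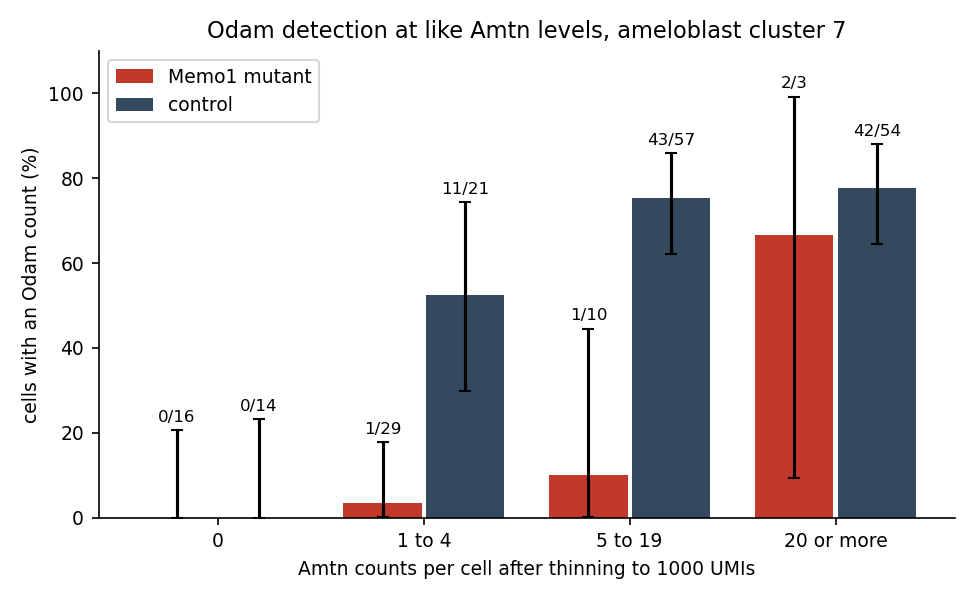
Share of cluster 7 cells with an Odam count, in percent, by the number of Amtn counts left in the cell after thinning to 1000 UMIs, with exact binomial 95% intervals and the cells with Odam of all cells above each bar; red is the Memo1 mutant and dark blue the control. In the bins of 1 to 4 and 5 to 19 Amtn counts the mutant shares are 1 of 29 and 1 of 10, and the control shares 11 of 21 and 43 of 57.

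Cells with much Amtn and no Odam occurred in both libraries. Of cells with at least 100 Amtn counts, 3 of 8 mutant and 8 of 76 control cells had 0 Odam counts. The highest Amtn count in a cell without Odam was 888 in the mutant and 1510 in the control. The reverse was not seen at that height, since all 2 mutant and all 54 control cells with at least 100 Odam counts had Amtn, with at least 222 counts in the mutant and 17 in the control. Summed over cluster 7 there were 8.88 Odam counts for every 100 Amtn counts in the mutant (8.06 to 9.76) and 90.2 in the control (89.0 to 91.5). Since 3′-end counts are not scaled by length, this ratio compares the libraries and not the abundance of the proteins.

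The mutant cells of cluster 7 also stood apart in stage markers. The 7 maturation markers all had counts in both libraries and summed to 1203 CPM in the mutant and 4910 CPM in the control. The 4 secretory markers in the file summed to 310879 CPM in the mutant and 218571 CPM in the control. Markers of the stratum intermedium or papillary layer, the cell layers that lie against the ameloblasts, all had counts and summed to 144 CPM in the mutant and 1562 CPM in the control. In the control nearly all of it came from Alpl, at 68.0 CPM in the mutant and 731 CPM in the control, and Cldn1. Endothelial markers summed to 21.5 CPM in the mutant and 12.5 CPM in the control. The part of these differences in the lower Odam and Amtn was not tested.

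The genes whose profile was most like Odam included several known from maturation ameloblasts. Likeness was the Pearson correlation of log2(CPM + 10) over 17 cluster-by-library sums of the lineage, for 4983 genes, and it rests largely on cluster 7, which every such gene shares. Slc24a4 came first with Odam (r = 0.95), followed by Gpr155, Klk4, Amtn, Kcnn4, Nudt18, Fth1, Ngef, Lgr6 and Slc39a2 (r = 0.93). For Amtn, Klk4 came first (r = 0.96), followed by Car6, Lgr6, Odam, Slc24a4, Pdlim7, Duoxa1, Car12, Slc26a1 and Rcan1 (r = 0.90). The lists have 3 genes in common, Slc24a4, Klk4 and Lgr6, and Odam and Amtn correlated with r = 0.94 and took the 4th place in each other's list. Over 55 sums of all-cell clusters they took the 1st place in each other's list.

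All 9 genes on the Odam list other than Amtn had ratios in cluster 7 whose intervals lay below 1. Of these, 8 were at least 2-fold lower in the mutant, where 11.6% of measured genes were. On the Amtn list, 6 of 9 genes other than Odam had intervals below 1, and 5 were at least 2-fold lower. Both lists were picked over sums that include cluster 7 of each library. Their ratios there are therefore not independent of the low Odam and Amtn of the mutant. In cluster 7, Gpr155 was 14.7-fold lower in the mutant (10.4 to 21.5), the potassium channel gene Kcnn4 9.64-fold lower and the ferritin heavy chain gene Fth1 5.73-fold lower. Klk4 was 5.42-fold lower and Slc24a4 5.26-fold lower. Rcan1, on the Amtn list, had 2067 counts in the mutant and 4029 in the control, a ratio of 1.02 (0.97 to 1.08). Car12, a carbonic anhydrase gene also on the Amtn list, was higher in the mutant by a ratio of 1.76 (1.57 to 1.97).

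Within control cluster 7 the levels of Odam and Amtn ranked the cells differently. Over 146 control cells of at least 1000 UMIs the per-cell CPM of the pair had a Spearman rank correlation of 0.34. None of these cells had Odam without Amtn. Over 58 mutant cells the correlation was 0.48. Among those, Odam was present in 2 of 19 cells of 1000 up to 10000 UMIs and in 8 of 39 deeper cells. The gene closest to Odam among 4778 in control cells was Ggt1, gamma-glutamyltransferase (correlation 0.80 with Odam and 0.16 with Amtn). Next came Cldn1, a tight junction claudin (0.75 with Odam, 0.24 with Amtn), then Cox6b2, S100a6, Clu (clusterin), the metallothionein gene Mt1, Cd9, Smoc2, Tmem238 and Mmp23, with correlations between 0.74 and 0.64. Odam ran against Enam (correlation -0.77) and Amelx (-0.66) in these cells, where Amtn had -0.14 and -0.17. Amtn ran closest, among the genes looked at, with Klk4 (0.65), against 0.29 for Odam. Odam and Amtn had rank correlations with the UMIs of the cell of 0.04 and -0.03.

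All 10 of the genes closest to Odam in control cells were at least 2-fold lower in mutant cluster 7, where 11.6% of measured genes were. They were picked from control cells of the same cluster, so a low Odam in the mutant and their low level are not independent. Clu had 61 counts (52.5 CPM) in the mutant and 14711 counts (6353 CPM) in the control, 121-fold lower in the mutant (94.2 to 158). Cldn1 had 24 counts (20.6 CPM) in the mutant and 1786 counts (771 CPM) in the control, 37.4-fold lower (25 to 58.5). S100a6 changed least, at 936 CPM in the mutant and 2304 CPM in the control, 2.46-fold lower. Alpl, alkaline phosphatase, stood at 936 CPM in control cells of cluster 7 with an Odam count and at 172 CPM in those without, and Cldn1 at 1042 CPM and 30.6 CPM.

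Within 500 kb of either start the annotation has 57 genes, of which 13 are in the matrix. Besides Odam and Amtn, 8 of these were measured in cluster 7, and 0 of them were at least 2-fold lower, 3 were at least 2-fold higher and 5 lay between, where 11.6% of all measured genes were at least 2-fold lower and 6.01% at least 2-fold higher. At 11.6%, a count of 0 among 8 genes says little about the neighbours. Csn3, the kappa-casein gene, had 395 counts (340 CPM) in the mutant and 26 counts (11.2 CPM) in the control, 30.3 times the control level (20.3 to 46.9). Enam, a matrix gene, stood at 18318 CPM in the mutant and 6673 CPM in the control, a ratio of 2.75. Ambn, ameloblastin, stood at 23461 CPM in the mutant and 39384 CPM in the control, a ratio of 0.60. The other 5 were Utp3, Rufy3, Grsf1, Mob1b and Dck, of which Dck had a ratio of 2.02 (1.40 to 2.92).

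Among the other maturation genes, 8 of 12 measured in cluster 7 were at least 2-fold lower in the mutant and 2 at least 2-fold higher. Of all measured genes, 11.6% were at least 2-fold lower and 6.01% at least 2-fold higher. The median log2 ratio of the list was -1.36, against -0.05 over all 7009 genes. Wdr72, needed for enamel maturation, had 5 counts in the mutant and 245 in the control, with a log2 ratio of -4.62. The phosphate transporter gene Slc34a2 had 1 count in the mutant and 272 in the control, which is 137-fold lower in the mutant (24.3 to 5413). Cftr, the chloride channel, had a log2 ratio of -1.70 and Car6, a secreted carbonic anhydrase, one of -1.35. Car2, the cytosolic carbonic anhydrase, was higher, at 2893 CPM in the mutant and 558 CPM in the control, and so was the bicarbonate transporter gene Slc4a4, at 134 CPM in the mutant and 51.4 CPM in the control.

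Of 11 measured basement membrane and hemidesmosome genes, 1 was at least 2-fold lower in mutant cluster 7 and 0 at least 2-fold higher, against 11.6% and 6.01% of all measured genes, with a median log2 ratio of -0.40 against -0.05. The share lower is near that of all genes. That gene was the keratin gene Krt14, at 1277 CPM in the mutant and 2870 CPM in the control. The laminin chain gene Lama3 had a log2 ratio of -0.04, and Lamb3 stood at 460 CPM in the mutant and 609 CPM in the control. Itga6 and Itgb4, which encode the integrin of the hemidesmosome, had log2 ratios of -0.31 and 0.23. Dst, Plec and Col17a1 had ratios of 0.60, 0.59 and 0.68, each with an interval below 1. Of the 11 genes only Itgb4 had a ratio above 1, at 1.18 (0.84 to 1.64). Against the same shares of all measured genes, 0 of 7 secretory-stage genes were at least 2-fold lower and 1, Enam, was at least 2-fold higher. Of 4 secretory calcium-binding phosphoprotein relatives measured, 0 were at least 2-fold lower, and Csn3 and Enam were at least 2-fold higher.

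Of 13 ameloblast transcription factor genes measured in cluster 7, 3 were at least 2-fold lower and 1 at least 2-fold higher, with a median log2 ratio of -0.34, against 11.6% lower and 6.01% higher among all measured genes. Klf5 stood at 31.0 CPM in the mutant and 146 CPM in the control, Sp6 (epiprofin) at 37.8 CPM in the mutant and 123 CPM in the control, and Runx2 at 184 CPM in the mutant and 380 CPM in the control. Satb1 was higher, at 366 CPM in the mutant and 163 CPM in the control. Runx1, the other RUNX gene on the list, was also higher but short of 2-fold, at 905 CPM in the mutant and 470 CPM in the control. So was Msx2, at 533 CPM in the mutant and 271 CPM in the control. Of 8 measured genes of pathways in which ODAM has been placed, 2 were at least 2-fold lower, against the same 11.6%. These were Arhgef5, a guanine nucleotide exchange factor gene, at 53.3 CPM in the mutant and 160 CPM in the control, and Tgfb1, a growth factor gene, with a log2 ratio of -1.69. Rhoa had a log2 ratio of -0.03.

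**Figure D4:**
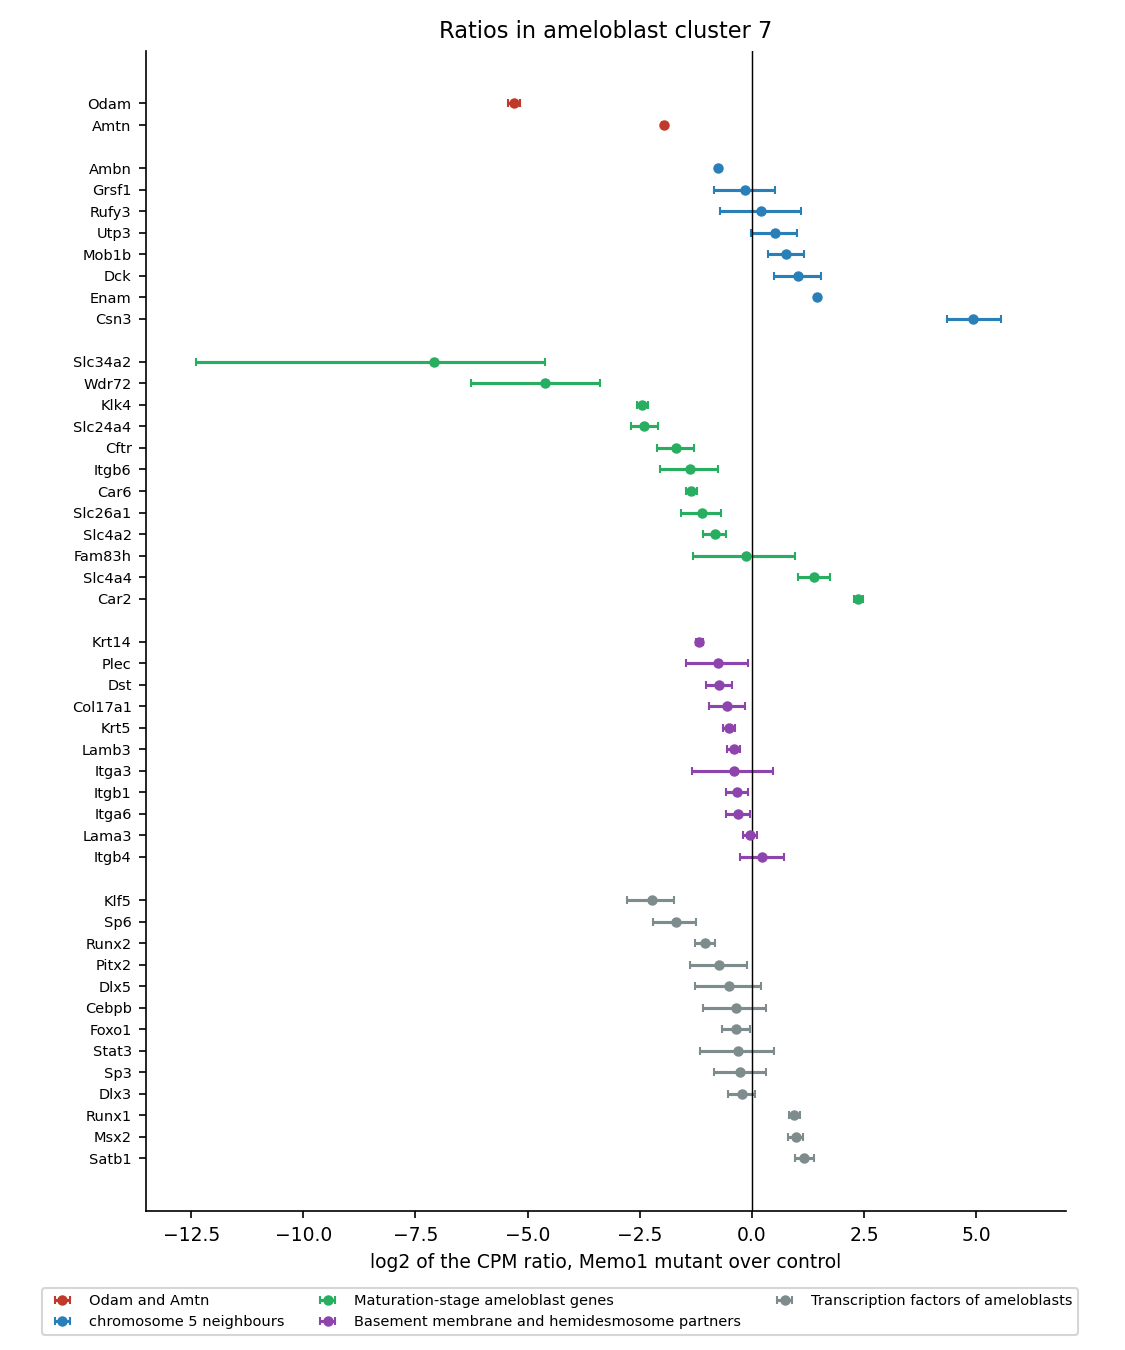
Log2 of the CPM ratio in ameloblast cluster 7, Memo1 mutant over control, with exact 95% intervals for counting error, for Odam and Amtn, for their measured neighbours within 500 kb on chromosome 5, and for 3 lists of ameloblast genes. Odam (-5.31) and Amtn (-1.96) lie left of all 8 neighbours, and the 11 basement membrane and hemidesmosome genes lie between -1.17 and 0.23.

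Outside the lineage both transcripts were low, and lower in the mutant library than in the control library. Over the 21 mutant all-cell clusters with at least 50 cells outside the lineage, Odam ran from 0 to 2.78 CPM and Amtn from 0.579 to 22.6 CPM. Over the 18 such control clusters, Odam ran from 7.19 to 107 CPM and Amtn from 9.65 to 142 CPM. In the 6 control clusters with a median below 2500 UMIs, Odam had 7.27 to 14.1 counts per 100 cells. In the 12 deeper control clusters it had 8.79 to 35.3, so the highest CPM belonged to shallow cells. The value of 35.3 came from 36 counts in 10 of 102 cells. Over the 18 clusters compared, the mutant over control ratio ran from 0 to 0.108 for Odam and from 0.0125 to 0.304 for Amtn. Over all cells outside the lineage, where 1.14% of genes were at least 2-fold lower, Odam stood at 0.404 CPM in the mutant and 19.1 CPM in the control, and Amtn at 2.99 CPM in the mutant and 27.1 CPM in the control. The highest mutant Amtn level, 22.6 CPM, came from 14 counts of which 13 lay in 1 cell.

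**Figure D5:**
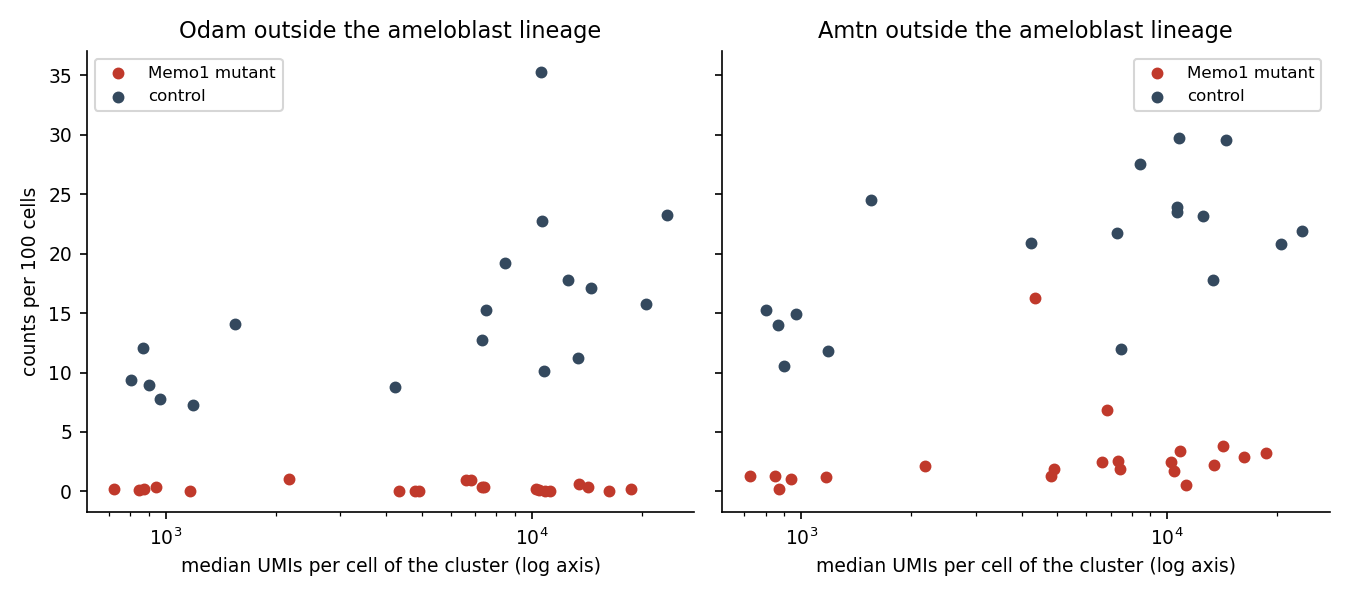
Counts per 100 cells of Odam (left) and Amtn (right) in each all-cell cluster outside the ameloblast lineage with at least 50 cells, against the median UMIs per cell of the cluster on a log axis; red points are mutant clusters and dark blue points control clusters. Control clusters lie between 7.27 and 35.3 for Odam, and mutant clusters at or below 1.09.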

How the data were processed

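Single-cell 3′ RNA counts were measured in 1 Memo1 mutant and 1 control library (about 10000 cells loaded from each suspension, per the labels). The authors deposited whole-number UMI counts per gene and cell, with their own cluster numbers. Per the submitters' processing notes, Cell Ranger (version not given), Seurat 3 and mm10 were used. Deposited cells have 501 to 49967 UMIs. Doublets were not called.

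Counts were summed per cluster and library and divided by the cluster total (CPM). Clusters with at least 50 cells in both libraries were compared. Ratios are mutant over control, whose 95% intervals treat both sums as Poisson and condition on their total, and shares have Clopper-Pearson intervals. With 1 library per group no test was made. A gene was measured with at least 20 counts over both libraries and 10 CPM in the higher one. Members, gene lists and markers were chosen with earlier results of these data known. Genes were named as members, list members, neighbours within 500 kb, the 10 most like each member, or the 10 closest to Odam in control cells. Part of 1 list is not reported here. Ratios and intervals were tested on simulated data. That test cannot decide whether the intervals hold for the real sums, because most Odam counts of the mutant lay in a few cells. The intervals do not cover the spread between cells. Python 3.11.15, scipy 1.17.1, R 4.3.3, edgeR 4.0.16 and DESeq2 1.42.0 were used, the last 2 for scaling factors only.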

Additional observations from a re-analysis of the deposited data

How the results depend on the processing

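Odam and Amtn stayed lower in the mutant, in the lineage and in cluster 7, under every alternative tried. In the lineage the mutant over control ratio of Odam (0.0172) was 0.0112 with stricter cell limits, 0.0114 with cells thinned to 1000 UMIs, 0.0423 as a mean of per-cell CPM, 0.0101 without the richest cell in each library and 0.0118 without the 5% of cells with the most UMIs. The lineage ratio of Amtn (0.166) was 0.178 with totals without the most abundant transcripts, and under the other settings in the same order 0.124, 0.123, 0.202, 0.127 and 0.158. In cluster 7 the ratio of Odam (0.0252) was 0.0283 with the reduced totals, then 0.0154, 0.0193, 0.0684, 0.0146 and 0.0141. The cluster 7 ratio of Amtn (0.257) was 0.287, 0.177, 0.217, 0.381, 0.200 and 0.189 in that order. The cause of these shifts was not tested. Chosen after the data were seen, leaving out cells with a barcode in both libraries gave 0.239 for Amtn in cluster 7, and all-cell cluster 24 in place of cluster 7 gave 0.266. Cells with both transcripts made up 5.13% of mutant and 47.1% of control cells at 10 UMIs or more of each gene, 61.5% of control cells at 2 UMIs or more, and 6.90% of mutant cells after thinning. With no filter other than 1 count, 24.1% of genes were at least 2-fold lower and 12.1% at least 2-fold higher in cluster 7. In the other clusters, 443 of 444 alternative ratios were below 1. The exception was Amtn in all-cell cluster 10, at 1.16 once the endothelium-like level was subtracted, which leaves little of either level. In 56 cases no ratio was formed. Either too few counts were left, or subtracting the endothelium-like level left nothing in the mutant or the control. Of the 10 genes most like Odam, 8 remained with 1 CPM added and 5 over all-cell clusters, and of those most like Amtn, 7 and 5. No paired analysis was possible because each group has 1 library. Cluster 7 of the mutant, with 78 cells and 464 Odam counts, limits the precision, and no variation between mice can be estimated.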
